A study of Mus musculus with 5 samples.

Results

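Immunoglobulin and B cell transcripts were followed by 9 genes in macrophages sorted from the mouse aorta. The genes were Ighm, Igkc, Iglc1, Iglc2, Jchain, Cd79a, Cd79b, Ms4a1 and Pax5, and they were chosen with their read counts and CPM (reads of a gene per 1000000 reads counted to genes) in these libraries already known. Their levels are therefore given as a description, without a test. Of the 9, 8 had a row among the 41388 gene IDs of the count tables, found through the Ensembl ID of each symbol, and Iglc1 was not analysed here.

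The study measured poly-A RNA in 5 libraries, 3 of adventitial macrophages and 2 of intimal macrophages. The adventitial libraries came from ApoE-/- mice of the C57BL/6 strain that had eaten a high fat diet for 28 weeks (6 mice in the group), and live (PI-) CD64+ cells were sorted from the stripped outer layer of the whole aorta, abdominal part included. The intimal libraries came from C57BL/6 mice with no genotype or diet given, with 5 mice pooled for each library, and the sort took live CD64+ CD11c+ MHC II+ cells of the thoracic aorta left when its outer layer was gone. Age and sex were not given for either group. Tissue layer, ApoE genotype, diet, aortic segment and sort gate differ together between the groups and cannot be told apart. The labels do not say how the 6 ApoE-/- mice were divided over 3 libraries, so any p-value measures the spread between these libraries only. The labels name no B cell marker in either gate.

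An antibody is made of heavy chains and kappa or lambda light chains, and each chain joins a variable part, assembled from V, D and J gene segments (V and J for light chains), to a constant part. Only B cells and their plasma cell progeny assemble complete antibody genes, although the constant region of the mu heavy chain can also be transcribed from its own start without a joined V segment. CD79A and CD79B anchor the antibody on the B cell surface and pass its signal on, MS4A1 (CD20) is a B cell surface protein, PAX5 is the factor that keeps cells in the B lineage, and the J chain links antibodies into multimers in plasma cells. Macrophages hold antibodies through Fc receptors, CD64 among them, without making them.

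The first set of sequences shows why lambda reads cannot be given to 1 gene with certainty. All sequences are from GENCODE M21 transcripts on GRCm38 and are written 5′ to 3′ on the strand of the gene. The Iglc2 stretch lies at chr16:19198689-19198748, that of Iglc3 at chr16:19065518-19065577 and that of Iglc1 at chr16:19061908-19061967, all on the minus strand within the constant exon, and capitals mark bases that differ from Iglc2.
Iglc2: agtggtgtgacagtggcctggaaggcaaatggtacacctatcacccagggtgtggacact
Iglc3: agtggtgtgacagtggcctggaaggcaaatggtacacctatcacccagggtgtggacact
Iglc1: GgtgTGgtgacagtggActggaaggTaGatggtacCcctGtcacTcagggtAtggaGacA
Over these 60 bases Iglc3 had 0 differences from Iglc2, and Iglc1 had 12. Over the aligned constant exons, Iglc3 was 96.3% identical to Iglc2 over 299 bases and Iglc1 was 73.7% identical over 297 bases. A read of 50 bases from the shared stretch matches Iglc2 and Iglc3 equally, and 7.65% of the 50-base windows of Iglc2 transcripts occur in Iglc3.

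The second set holds the V genes that carried most of the V reads in the adventitial replicate 1 library and the intimal replicate 1 library. The last 60 bases of the V exon are at chr6:70260409-70260468 for Igkv6-23 (minus strand), chr6:70074024-70074083 for Igkv6-32 (minus strand) and chr6:70699008-70699067 for Igkv3-2 (plus strand), and capitals mark bases that differ from Igkv6-23.
Igkv6-23: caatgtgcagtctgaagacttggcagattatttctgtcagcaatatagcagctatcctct
Igkv6-32: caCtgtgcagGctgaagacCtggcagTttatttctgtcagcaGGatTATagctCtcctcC
Igkv3-2: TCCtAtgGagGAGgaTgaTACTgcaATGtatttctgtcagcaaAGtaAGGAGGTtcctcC
Igkv6-32 differed from Igkv6-23 at 11 of these 60 bases and Igkv3-2 at 26. Igkv6-32 shared 0 of its 50-base windows with another gene. Of the windows of Igkv6-23, 35.6% also occurred in other genes, Igkv6-25 among them, and 21.3% of those of Igkv3-2 occurred in others such as Igkv3-5.

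The third pair holds the starts of the constant exons read most often, Ighm at chr12:113422671-113422730 (minus strand) and Igkc at chr6:70726435-70726494 (plus strand), whose 50-base windows occurred in no other gene.
Ighm: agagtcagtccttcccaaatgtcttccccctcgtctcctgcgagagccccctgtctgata
Igkc: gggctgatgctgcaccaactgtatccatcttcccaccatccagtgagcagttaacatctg

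The 3 adventitial libraries held 3941381, 10076142 and 10054377 reads counted to genes, and the 2 intimal libraries held 14970204 and 20806925. A count of 0 allows up to 3 reads, which is 0.298 to 0.761 CPM in the adventitial libraries and 0.144 to 0.200 CPM in the intimal ones. These limits, and all intervals below, cover counting error only, since reads after 12 cycles of PCR without molecular identifiers are not independent molecules. All 12 macrophage markers on the list (Csf1r, Adgre1, C1qa and others) had reads in every library, with a summed level of 26881 to 33947 CPM in adventitial libraries against 27544 and 21392 CPM in intimal libraries. Reads were spread over more genes in the adventitia, with 23289 to 25738 genes holding at least 1 read in adventitial libraries and 16374 to 17489 in intimal libraries. Of the 8829 genes with 4 to 20 reads over all 5 libraries, 91.2% had the higher mean CPM in the adventitia, and for 46.2% every adventitial library was above both intimal ones. Members with few reads are to be read against that share.

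Ighm, the constant region of the mu heavy chain (ENSMUSG00000076617, exons within chr12:113418950-113422730, minus strand), was by far the most abundant member in 4 of the 5 libraries by reads per length. It had 906, 4012 and 7397 reads in the adventitial libraries, against 14054 and 17915 in the intimal libraries. That is 230, 398 and 736 CPM for the adventitia, against 939 and 861 CPM for the intima. Every intimal library was above every adventitial library, and the intimal pair lay close together while the adventitial libraries spread widely. The mean was 455 ± 258 CPM (SD, n = 3) in adventitial libraries and 900 ± 55.0 CPM (SD, n = 2) in intimal libraries, a log2 ratio of -0.99. By RPKM, which also divides by gene length, Ighm stood at ranks 401, 221 and 123 among all genes with a read in adventitial libraries, and at ranks 90 and 73 in intimal libraries. Fewer cells that make a transcript and less of it per cell cannot be told apart in such bulk libraries.

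The light chain constant genes did not share this pattern. Igkc, the kappa constant region (ENSMUSG00000076609, chr6:70726435-70726757, plus strand), had 286, 0 and 46 reads in adventitial libraries, against 773 and 1 in intimal libraries. In CPM these are 72.6, 0 and 4.58 for adventitial libraries, against 51.6 and 0.0481 for intimal ones. Within each group the libraries differed more than 10-fold, and the group means of 25.7 ± 40.6 CPM (SD, n = 3) in the adventitia and 25.8 ± 36.5 CPM (SD, n = 2) in the intima were almost equal. In the adventitial replicate 1 library Igkc exceeded Ighm per length, at 225 RPKM for Igkc and 155 RPKM for Ighm. The adventitial replicate 2 library and the intimal replicate 2 library held high Ighm with 0 and 1 Igkc read. Iglc2, a lambda constant region (ENSMUSG00000076937, exons within chr16:19198401-19200351, minus strand), had 0, 1 and 16 reads in adventitial libraries, against 115 and 0 in intimal libraries. Its highest level, 7.68 CPM, was in the intimal replicate 1 library, where Igkc was at 51.6 CPM, second to the adventitial replicate 1 library.

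**Figure D1:**
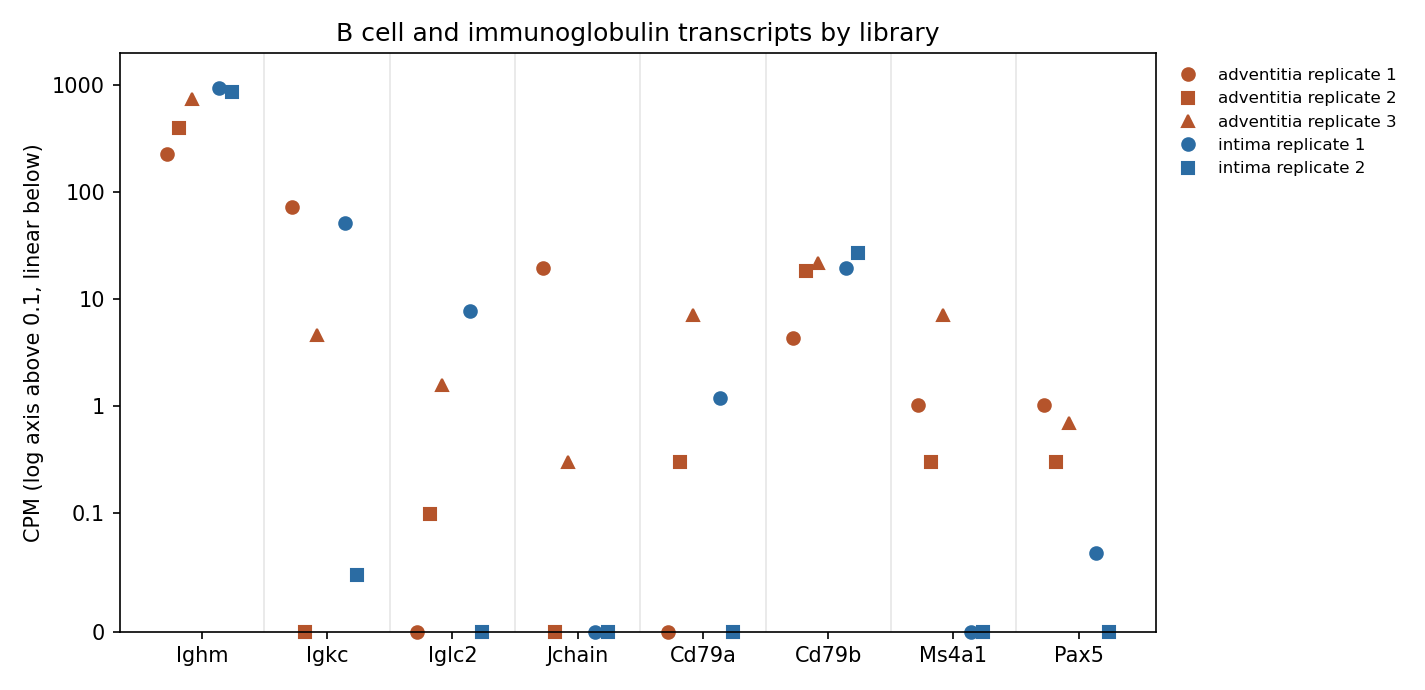
Level of the 8 genes with a row in each library, in CPM on an axis that is logarithmic above 0.1 and linear below. Each point is a library, with adventitial libraries left of intimal ones within each gene. Ighm lies between 230 and 939 CPM in every library, Cd79b between 4.31 and 26.9 CPM, and the other 6 genes are at 0 in at least 1 library.

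Jchain, the joining chain of secreted antibody (ENSMUSG00000067149, chr5:88520512-88527891, minus strand), had 77, 0 and 3 reads in adventitial libraries, against 0 and 0 in intimal libraries. Of its 80 adventitial reads, 77 were in the replicate 1 library, at 19.5 CPM. Set against the 3 reads that 0 allows over the intimal group, the pooled adventitial level was at least 39.6-fold higher, and without the replicate 1 library the adventitial reads were themselves at that limit of 3. The same adventitial library held most of the reads of Igha, the alpha heavy chain constant region of mucosal antibody, with 222, 0 and 3 reads in adventitial libraries and 0 and 0 in intimal libraries. The other 5 heavy chain constant genes with a row, Ighg1, Ighg2b, Ighg2c, Ighg3 and Ighe, had at most 6 reads in any adventitial library and 0 in both intimal libraries. Ighd, Iglc3 and Iglc4 were not analysed here.

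Cd79b and Cd79a encode the partners of a single signalling dimer, and their reads did not run in parallel. Cd79b (ENSMUSG00000040592, exons within chr11:106311341-106314762, minus strand) had 17, 184 and 217 reads in adventitial libraries, against 291 and 560 in intimal libraries. In CPM these are 4.31, 18.3 and 21.6 for adventitial libraries, against 19.4 and 26.9 for intimal ones. All 5 libraries held Cd79b and the groups overlapped, with means of 14.7 ± 9.16 CPM (SD, n = 3) in the adventitia and 23.2 ± 5.29 CPM (SD, n = 2) in the intima. Cd79a (ENSMUSG00000003379, exons within chr7:24897381-24902197, plus strand) had 0, 3 and 72 reads in adventitial libraries, against 18 and 0 in intimal libraries. Its mean was 4.14-fold higher in the adventitia, and that value rests on the adventitial replicate 3 library at 7.16 CPM. Without that library the adventitial mean was 0.149 CPM, against 0.601 CPM in the intima. The log2 ratio was then at most -1.49, with the adventitial mean raised to the floor of 3 reads, against 2.05 with that library. The intimal replicate 2 library had the highest Cd79b level and 0 Cd79a reads. Of the 50-base windows of Cd79a, 8.31% also occur in the predicted gene Gm32220.

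Ms4a1 (ENSMUSG00000024673, exons within chr19:11249675-11266241, minus strand) had 4, 3 and 71 reads in adventitial libraries, against 0 and 0 in intimal libraries. In CPM these are 1.01, 0.298 and 7.06 in the adventitia, with the adventitial replicate 3 library highest, as it was for Cd79a. The pooled adventitial level was at least 38.6-fold above the 3 reads that 0 allows over the intimal group, and 71 of the 78 reads were in that library. Pax5 (ENSMUSG00000014030, exons within chr4:44531145-44710487, minus strand) had 4, 3 and 7 reads in adventitial libraries, against 1 and 0 in intimal libraries. The pooled ratio was 20.8, with an exact 95% interval of 3.73 to 822 for counting error. Its exons overlap those of Gm12462 on the other strand, which had 1 to 4 reads in every library. No strand setting is given in the sources used here, so reads of overlapping genes on opposite strands cannot be told apart. Pax5, with 14 adventitial reads and 1 intimal read, falls among the genes of 4 to 20 reads described above. Ms4a1, Cd79a and Jchain fall among the 3739 genes with 21 to 100 reads over all libraries. Of those genes, 84.5% had the higher mean in the adventitia and 63.5% had every adventitial library above both intimal ones. The part of this wide spread of low reads in the values of Pax5, Ms4a1, Cd79a and Jchain was not tested.

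Counted together, Ms4a1 and Pax5 were higher in every adventitial library than in both intimal libraries, Ighm was lower in every adventitial library, and the other 5 members overlapped between the groups. Of the 13408 genes tested, 40.5% did not overlap between the groups, 26.4% did not overlap with the adventitia higher and 14.1% with the adventitia lower. Nothing is read from the members' count, because they were chosen on this contrast. The test's filter on low counts kept 6 of the 8 genes, and Jchain and Pax5 did not pass it. At a minimum of 3 reads, 6, 5 and 8 of the 8 genes were detected in adventitial libraries, and 5 and 2 in intimal libraries. With every library thinned to 3941381 reads, the depth of the smallest, the numbers were 6, 2 and 6 in adventitial libraries, and 5 and 2 in intimal libraries. The adventitial replicate 2 library and the intimal replicate 2 library then held the same pair, Ighm and Cd79b.

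The sum over the 8 genes was 328, 417 and 779 CPM in adventitial libraries, against 1019 and 888 CPM in intimal libraries. The difference between the means lay in Ighm. Without Ighm the sum was 98.4, 19.3 and 43.0 CPM in adventitial libraries, against 80.0 and 27.0 CPM in intimal libraries, with means of 53.6 ± 40.6 CPM (SD, n = 3) in the adventitia and 53.5 ± 37.5 CPM (SD, n = 2) in the intima. Without Cd79b as well, it was 94.1, 0.992 and 21.4 CPM in adventitial libraries, against 60.6 and 0.0481 CPM in intimal libraries. What remained was in the adventitial replicate 1 and 3 libraries and the intimal replicate 1 library, and nearly none was in the replicate 2 library of either group.

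The tables list the gene segments one by one, and 252 immunoglobulin rows were sorted into V, D, J and constant classes by symbol. The 108 heavy chain V genes together had 10, 22 and 32 reads in adventitial libraries, against 12 and 2 in intimal libraries. Set against the reads of all heavy chain constant genes, that is 0.882, 0.547 and 0.432 V reads for every 100 constant reads in adventitial libraries, and 0.0854 and 0.0112 in intimal libraries. Heavy chain V reads were therefore few beside Ighm in every library, and fewest per constant read in the intima, where Ighm was highest. They lay in 8, 15 and 24 genes in adventitial libraries, against 8 and 2 in intimal libraries. The part of the wide spread of low reads described above in these ratios was not tested. The 4 heavy chain J segments had 4, 3 and 6 reads in adventitial libraries, against 0 and 21 in intimal libraries.

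The kappa locus looked different. The 103 kappa V genes had 95, 31 and 41 reads in adventitial libraries, against 401 and 1 in intimal libraries. For every 100 Igkc reads there were 33.2 V kappa reads in the adventitial replicate 1 library, 89.1 in the adventitial replicate 3 library and 51.9 in the intimal replicate 1 library. Neither these ratios nor those of the heavy chain allow for gene length, which is 1486 bases for Ighm and 323 for Igkc. The adventitial replicate 2 library had 31 V kappa reads, spread over 23 genes, and 0 Igkc reads. Its V kappa reads were therefore not accompanied by kappa constant reads, and the part of the wide spread of low reads in them was not tested. The 5 kappa J segments had 2, 0 and 5 reads in adventitial libraries, against 57 and 0 in intimal libraries. The 3 lambda V genes had 0, 2 and 4 reads in adventitial libraries, against 0 and 0 in intimal libraries, so the 115 Iglc2 reads of the intimal replicate 1 library came with no lambda V read.

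Ighm took 59.2%, 98.2% and 97.8% of all immunoglobulin reads in adventitial libraries, and 91.2% and 99.9% in intimal libraries. Igkc took 286 of 286 light chain constant reads in the adventitial replicate 1 library, 74.2% of 62 in the adventitial replicate 3 library (exact Clopper-Pearson 95% interval 61.5% to 84.5%) and 87.0% of 888 in the intimal replicate 1 library (84.7% to 89.2%). These shares set Igkc against Iglc2 alone, since Iglc1, Iglc3 and Iglc4 were not analysed here. They are therefore not shares of kappa among all light chains.

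**Figure D2:**
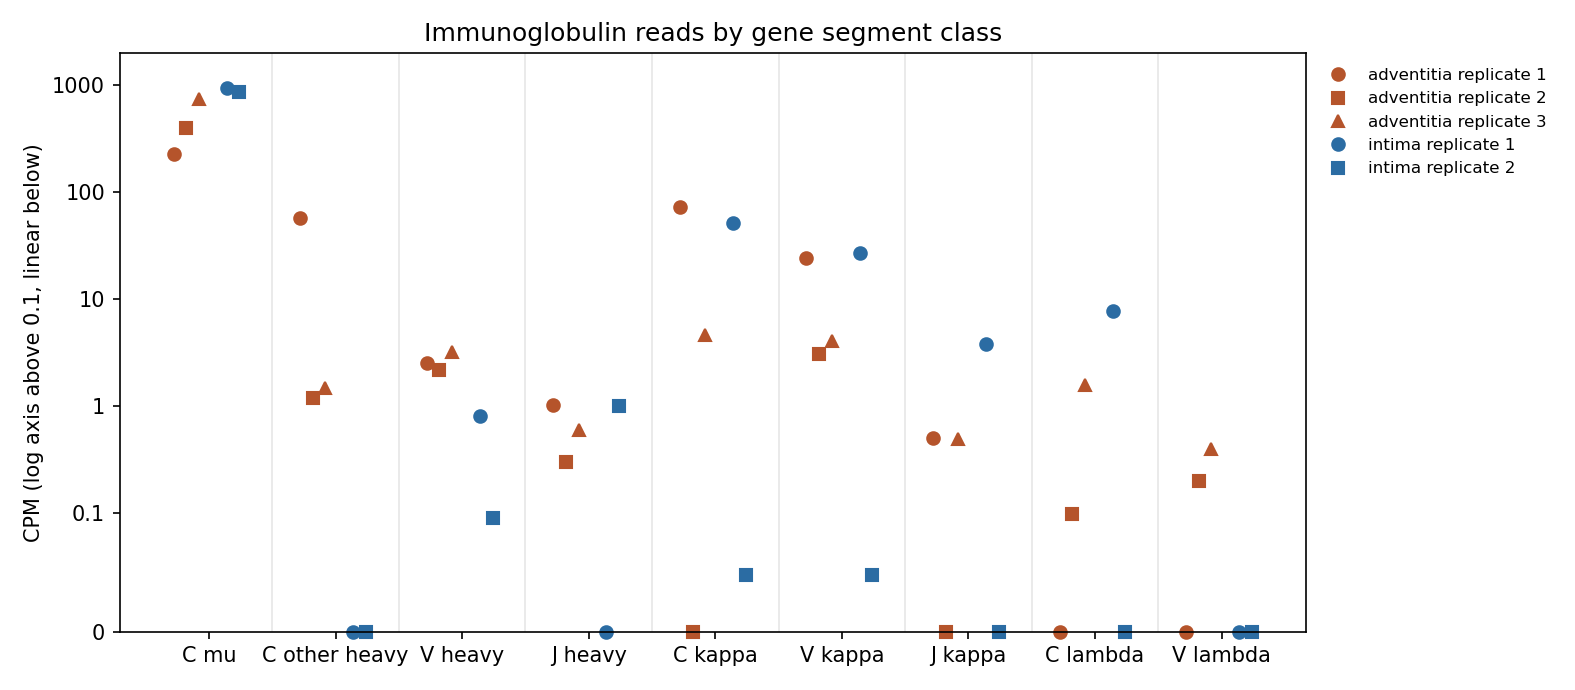
Summed level of immunoglobulin gene segment classes in each library, in CPM on an axis that is logarithmic above 0.1 and linear below. Each point is a library, with adventitial libraries left of intimal ones. The mu constant region lies between 230 and 939 CPM in every library, while heavy chain V segments lie between 0.0961 and 3.18 CPM, and the kappa constant and V classes are highest in the adventitial replicate 1 library and the intimal replicate 1 library.

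The kappa V reads of the adventitial replicate 1 library and the intimal replicate 1 library were concentrated in few genes. In the adventitial replicate 1 library Igkv3-2 held 78 of 105 V reads, which is 74.3% (exact Clopper-Pearson 95% interval 64.8% to 82.3%). In the intimal replicate 1 library Igkv6-23 held 285 of 413 V reads, 69.0% (64.3% to 73.4%), and Igkv6-32 held 107, 25.9% (21.7% to 30.4%). These are the V genes whose ends are printed above, and the libraries of the 2 groups were led by different ones. In the adventitial replicate 2 library 55 V reads were spread over 39 V genes, with 4 in the leading one, Ighv5-15, and with Igkv1-132 and Igkv9-123 at 3 each. In the adventitial replicate 3 library 77 V reads were spread over 47 V genes, led by Igkv4-70 with 12 reads, 15.6% (8.32% to 25.6%), and Igkv6-23 with 5. The intimal replicate 2 library had 3 V reads in all. Of the 50-base windows of Igkv4-70, 63.9% also occur in other genes, Igkv4-59 among them, so its count is uncertain.

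**Figure D3:**
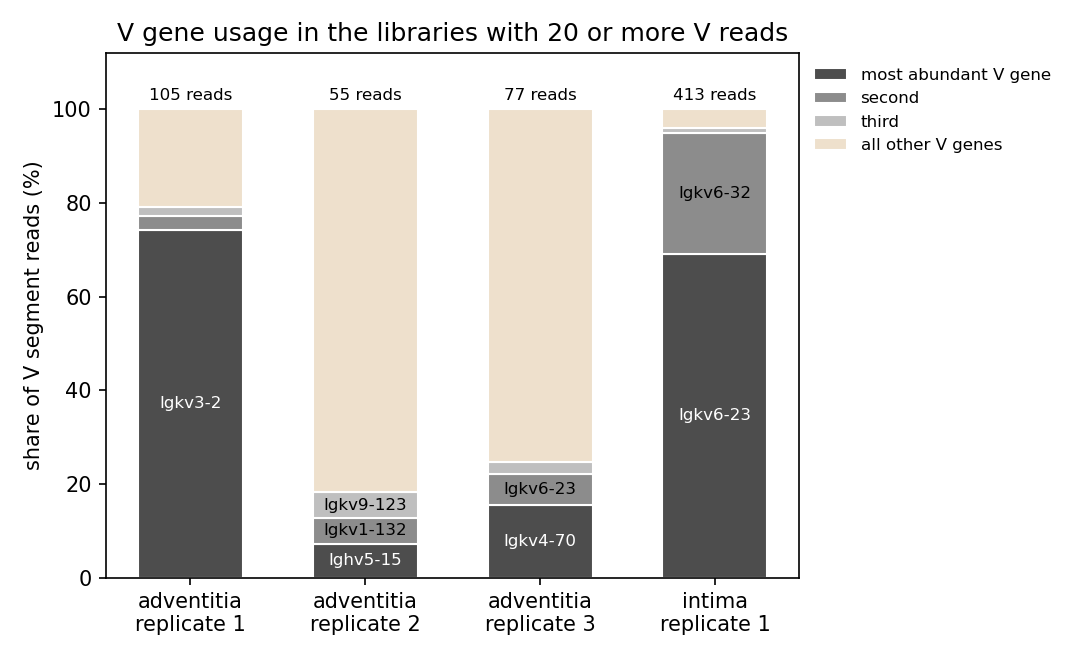
Share of V segment reads held by the 3 most abundant V genes and by all others, in percent, in the 4 libraries with at least 20 V reads. Each bar is a library, with the number of V reads above it. A single kappa V gene holds 74.3% in the adventitial replicate 1 library and 69.0% in the intimal replicate 1 library, while the leading gene holds 7.27% and 15.6% in the other 2 adventitial libraries.

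The other genes of the B lineage give a wider view, and they were tested. Of 72 such genes on lists of constant regions, B cell surface and signalling genes, transcription factors, plasma cell genes and precursor genes, 69 had a row and 45 passed the filter. The quasi-likelihood test of edgeR, adjusted by Benjamini-Hochberg over all 13408 genes, called 0 of the 45. Of all genes it called 0.671%, with 0.149% higher and 0.522% lower in the adventitia (20 and 70 genes). At an unadjusted p under 0.05 in edgeR there were 10 of the 45, beside 22.4% of all genes. DESeq2 called 5, beside 8.88% of all genes, and limma voom called 2, beside 6.26%, so none of these counts stands out from all genes. The median log2 difference of the 45 was -0.11, beside -0.14 for all genes tested.

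Several genes of these lists are also used by macrophages. Among the 19 surface and signalling genes tested, those with the highest mean over all 5 libraries were Cd72, an inhibitory co-receptor, and Lyn, a kinase of myeloid and B cell receptors. Cd72 had 36.5, 272 and 443 CPM in adventitial libraries, against 726 and 1854 CPM in intimal libraries. Every intimal library was above every adventitial one, and the log2 difference of -2.51 (SE 0.79) was not called (edgeR, adjusted p = 0.113). Lyn had 189, 451 and 349 CPM in adventitial libraries, against 356 and 248 CPM in intimal libraries, so the groups overlapped. Cd38, a surface enzyme of B cells and myeloid cells that was named after its values were seen, had 407, 375 and 370 CPM in adventitial libraries, against 76.4 and 71.2 CPM in intimal libraries. Both groups were tight and far apart, and the log2 difference of 2.14 (SE 0.44) fell just short of a call (edgeR, adjusted p = 0.0622).

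By the same mean, the leading 2 of the 14 transcription factors tested were Bhlhe41 and Irf8, a factor of B cells and of mononuclear phagocytes. Irf8 had 52.5, 53.8 and 75.5 CPM in adventitial libraries, against 99.9 and 287 CPM in intimal libraries. The groups did not overlap, but the log2 difference of -1.86 (SE 0.55) was not called (edgeR, adjusted p = 0.109). It was -1.11 without the intimal replicate 2 library and -2.25 without the intimal replicate 1 library. Bhlhe41 had 63.4 to 126 CPM in adventitial libraries, against 139 and 139 CPM in intimal libraries (adjusted p = 0.521 in the same edgeR fit).

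Of the 11 plasma cell genes tested, Xbp1 and Slamf7 had the highest means over all 5 libraries. Xbp1, a factor of the secretory stress response, had 128, 166 and 139 CPM in adventitial libraries, against 95.2 and 98.3 CPM in intimal libraries. Its log2 difference was 0.35 (SE 0.47), with adjusted p = 0.731 in the edgeR fit. Slamf7 had 9.64, 152 and 116 CPM in adventitial libraries, against 152 and 140 CPM in intimal libraries, with the adventitial replicate 1 library far below the others. Mzb1, a chaperone of antibody assembly named after its values were seen, had 1, 0 and 1 reads in adventitial libraries, against 274 and 0 in intimal libraries. The library with those 274 reads was the intimal replicate 1 library, which also had the highest CPM of Iglc2 and of V kappa but had 0 Jchain reads. On the same plasma cell list, that library held 0 reads of Derl3, 1 of Eaf2 and 8 of Sdc1, and the lowest CPM of Creld2. It also held the highest CPM of Txndc5, Fkbp11 and Prdm1. Of the precursor genes only Il7r, the interleukin 7 receptor, was tested, with 6.34, 18.6 and 32.4 CPM in adventitial libraries, against 12.3 and 25.0 CPM in intimal libraries.

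Genes that attract or sustain B cells were on a further list, and 5 of its 7 genes were tested. Cxcl13, the chemokine that draws B cells into follicles, was the only one called, beside 0.149% of all genes called higher in the adventitia. The list was chosen with earlier results of these data known, and Cxcl13 passed the filter on low counts through the adventitial libraries alone. It had 417, 113 and 613 CPM in adventitial libraries, against 0.267 and 0 CPM in intimal libraries. All 3 adventitial libraries were far above both intimal ones, and the log2 difference was 11.29 (SE 1.32; edgeR, adjusted p = 0.00287). The size of that difference rests on 4 intimal reads, and it was 15.05 without the intimal replicate 1 library, which held them, and 10.03 without the intimal replicate 2 library. Without the adventitial replicate 1 library the call was lost (edgeR, adjusted p = 0.118) while the difference was 11.37, and over all the alternatives run the adjusted p lay between 2.53e-24 and 0.118 (edgeR, DESeq2 and limma voom). Cxcl12, a chemokine that retains B cell precursors and plasma cells in marrow, had 68.0, 48.1 and 216 CPM in adventitial libraries, against 2.00 and 38.4 CPM in intimal libraries (log2 difference 2.33, adjusted p = 0.231 in the edgeR fit). Its difference was 1.34 without the adventitial replicate 3 library and 5.42 without the intimal replicate 2 library. Tnfsf13b, a factor that sustains B cells and was named after its values were seen, went the other way. It had 1.78, 14.7 and 9.55 CPM in adventitial libraries, against 58.6 and 80.6 CPM in intimal libraries. The log2 difference of -3.18 (SE 0.94) was not called (edgeR, adjusted p = 0.109). Of the 5 tested genes, 3 were higher in every adventitial library than in both intimal ones, and Tnfsf13b was lower. Over all genes tested, 26.4% did not overlap with the adventitia higher and 14.1% with the adventitia lower. The adventitial replicate 2 library held 113 CPM of Cxcl13 and 0 reads of Igkc and of Jchain.

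Of the 8 tested receptors that bind antibody, Fcer1g and Fcgr3 had the highest means over all 5 libraries. Fcer1g, the signalling chain shared by Fc receptors, had 4177, 5369 and 4405 CPM in adventitial libraries, against 3230 and 1402 CPM in intimal libraries. Its log2 difference was 0.74 (SE 0.51), which edgeR did not call (adjusted p = 0.429). Without the intimal replicate 1 library it was 1.72 and called (edgeR, adjusted p = 0.0481), and without the intimal replicate 2 library it was 0.13, which was not called. Fcgr3, an Fc receptor for IgG, had 961, 940 and 1808 CPM in adventitial libraries, against 1585 and 1175 CPM in intimal libraries, and the groups overlapped. Over the 10 genes of the list the summed level was 7445 to 8780 CPM in adventitial libraries, against 6208 and 3626 CPM in intimal libraries. The list includes Fcgr1, which encodes the CD64 used in both sorts.

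Marker lists of other cell types also differed between the libraries. The 16 T and NK cell markers summed to 13.7 to 19.1 CPM in adventitial libraries, against 115 and 177 CPM in intimal libraries. Most of the 115 CPM in the intimal replicate 1 library was Cd4, at 109 CPM, while Cd3d, Cd3e, Cd3g and Trac had 0 or 1 read there. In the intimal replicate 2 library Cd3e had 243 reads and Trac 175, whereas Igkc had 1 and Jchain 0. The 8 markers of plasmacytoid dendritic cells summed to 331 to 507 CPM in adventitial libraries, against 256 and 271 CPM in intimal libraries.

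Endothelial markers summed to 33.2 to 62.9 CPM in adventitial libraries, against 751 and 979 CPM in intimal libraries, and 4 of 11 tested (Pecam1, Vwf, Emcn and Esam) were called lower in the adventitia by edgeR. Smooth muscle markers summed to 14.4 to 59.9 CPM in adventitial libraries, against 300.3 and 111 CPM in intimal libraries, with 1 of 7 tested, Tagln, called lower. Fibroblast markers summed to 682 to 1535 CPM in adventitial libraries, against 304 and 283 CPM in intimal libraries, with 1 of 10 tested, Lum, called higher. Of all genes tested, edgeR called 0.522% lower and 0.149% higher in the adventitia. These marker lists were chosen with earlier results of these data known. Neutrophil markers summed to 60.5 to 128 CPM in adventitial libraries, against 4.61 and 101 CPM in intimal libraries. The part of these other transcripts in the B cell and immunoglobulin values was not tested.

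Averaged over the 6 members that passed the filter, the profile over the 5 libraries was lowest in the replicate 2 library of each group. The nearest of 12331 other tested genes, by root mean square distance of centred log2 CPM over the 5 libraries, were Slc30a7 (0.0898), B3gnt8 (0.187), Gabrb1 (0.246), Atg10 (0.256) and Cldn34c1 (0.264). Slc30a7 had 44.7, 21.7 and 93.0 CPM in adventitial libraries, against 92.0 and 22.8 CPM in intimal libraries. With 5 points, such likeness is a description of these libraries only.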

How the data were processed

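The labels' protocols describe cDNA from cell lysates made with the SMARTer Ultra Low kit, sheared by sonication, amplified over 12 cycles and sequenced as single reads of 50 bases. Per the file headers, each library has a table of 41388 gene IDs with position, length, reads, CPM and RPKM. The authors deposited counts as whole reads per gene. The deposited CPM and RPKM columns equalled those computed from the deposited counts and lengths within 1e-06. The submitters' processing notes name GRCm38, STAR 2.0.4b, Subread and featureCounts 1.4.5, and the annotation release, strand setting and treatment of reads with several matches are not given in the sources used here. Symbols came from the GENCODE M21 annotation, which named 40254 IDs. Reads across a rearranged V(D)J junction, or with many mutations, may be missing from counts against the germline genome, and reads of near-identical segments may be split or dropped.

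Member levels were CPM by total counted reads, with means and SD. Folds against 0 used a floor of 3 reads over the group, and shares have Clopper-Pearson intervals at the 95% level. Immunoglobulin segments were sorted by symbol prefix. All genes were fitted with edgeR 4.0.16 (R 4.3.3), with TMM scaling, filterByExpr by group (minimum count 10, minimum total 15), the quasi-likelihood test, and Benjamini-Hochberg adjustment over 13408 genes, called under 0.05. DESeq2 1.42.0, limma 3.58.1 (voom), other scalings and filters, a replicate block, thinning to 3941381 reads and leaving out each library were alternatives. The members and all gene lists were chosen with earlier results of these data known. Named genes were the members, all constant genes, called genes and the 2 with the highest mean CPM over all 5 libraries of each B cell related list (for other cell types the called genes and the summed level), the 3 leading V genes of each library with at least 20 V reads (ties not all named), and the 5 nearest profiles. Cd38, Tnfsf13b, Mzb1 with the plasma cell genes set beside it, and the T cell genes were named after their values were seen. Replicate libraries differed by more than sampling noise, so none was taken as a repeat of another.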

Additional observations from a re-analysis of the deposited data

How the results depend on the processing

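The count of all genes called (90 with the edgeR test) was 75 with upper-quartile scaling, 93 with library size alone and 78 with thinned reads, but 1190 with DESeq2, 839 with limma voom, 386 with no filter on low counts and 396 with a filter of 1 CPM, and 10 to 389 when a library was left out (10 without adventitia replicate 1, 389 without intima replicate 1). With 1 intimal library left, that library is assumed to vary like the adventitial ones. The higher calls in the adventitia were 20 of 90, 29 of 75 with upper-quartile scaling, 34 of 93 with library size alone and 700 of 1190 with DESeq2, and the scaling moved the median log2 difference of all genes from -0.14 (TMM) to 0.35 (upper-quartile). Among the other B lineage genes, 0 were called with edgeR, 1 with upper-quartile scaling, with library size alone and with thinned reads (Cd38), 5 with DESeq2 (Bcl11a, Cd38 and Cr2 higher, Fkbp11 and Txndc5 lower), 2 with limma voom (Cd38 and Ikzf3), 3 with no filter (Cd72, Igha and Txndc5), 3 with the 1 CPM filter (Cd38, Ikzf3 and Txndc5), and 0 to 2 when a library was left out. Bcl11a, Cr2 and Ikzf3 passed the filter on low counts through the adventitial libraries alone, and Fkbp11 through the intimal ones. Igha had 222, 0 and 3 reads in adventitial libraries. The summed level in intimal libraries was 1060 CPM with TMM-adjusted library sizes, against 953 CPM as given.

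With the replicate number as a block, 183 genes were called (50 higher in the adventitia) and 2 of the other B lineage genes, Cd72 and Txndc5. The numbers do not pair the libraries, since the mice differ. The deviations of same-numbered libraries from their group mean correlated at 0.036 and 0.0019 over genes. With 2 intimal libraries these deviations mirror each other, so the correlations cannot decide on pairing.

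Direction changed for genes near 0 and, with a library left out, also for Cd79a and Iglc2, which were not near 0. Lyn (log2 difference -0.10) was 0.36, 0.13, 0.0080, 0.034 and 0.25 with upper-quartile scaling, library size alone, DESeq2, the 1 CPM filter and thinned reads, and Il7r (-0.12) was 0.35, 0.041, 0.011, 0.035 and 0.15. Leaving out each library gave -0.49 to 0.42 for Lyn, -0.76 to 0.38 for Il7r and -0.80 to 0.080 for Fcgr3 (-0.39), which was 0.081 with upper-quartile scaling. The log2 ratio of Igkc (-0.01) was 0.070 with upper-quartile sizes and 0.076 with thinned reads. With a library left out, it was -3.50 (adventitia replicate 1) to at least 7.48 (intima replicate 1). That of Cd79a (2.05) was at most -1.49 (adventitia replicate 3) to at least 4.11 (intima replicate 1). That of Iglc2 (-2.77) was at most -4.17 (adventitia replicate 3) to at least 1.97 (intima replicate 1). The values given as limits have a group mean raised to the floor of 3 reads over the group. The cause was not tested. Ighm was lower in the adventitia under every scaling, thinning and left-out library tried, at a log2 ratio of -1.52 to -0.67. Leaving out a library could not reverse that direction, since every intimal library was above every adventitial one. Ighm was also chosen with these values known. With 2 and 3 libraries, and few reads of most members, depth limits what can be said of Pax5, Ms4a1, Cd79a and Jchain.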
